A study of Mus musculus with 36 samples.

Results

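The DNA replication genes described here are 43 genes for the proteins that license origins, unwind and copy DNA, supply deoxynucleotides and rebuild chromatin behind the fork. They were taken by symbol from a list of replication genes, and all 43 were found among the 24781 genes of the deposited table. The study asked how B cells and the metabolite GABA shape immunity to MC38 colon adenocarcinoma, a mouse tumour line injected into the skin. CD8+ T cells and tumour-associated macrophages (TAMs, CD45+CD11b+F4/80 hi cells) were sorted at day 7 from tumours, with 100 cells in each library and 6 libraries in each group. The study as a whole used adult mice of both sexes, and the sex of the mouse behind each library is not given here. The groups were wild-type (WT) mice, *muMt*-/- mice, and *muMt*-/- mice with a GABA pellet under the skin, where WT mice were C57BL/6J or C57BL/6N and the mutants had a C57BL/6J background. *muMt*-/- mice lack mature B cells through a disrupted immunoglobulin heavy chain gene, so the GABA group differs from WT by both the genotype and the pellet. The labels give no treatment for the WT and *muMt*-/- groups, and the methods of the study describe placebo pellets for mice without GABA. All 6 groups carried the tumour, and each library came from 1 mouse.

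DNA replication is prepared in G1 phase, when the loading factors CDC6 and CDT1 place the MCM helicase on origins, and it starts in S phase when CDC45 and the GINS complex join the helicase. Polymerases alpha, delta and epsilon then copy the strands, and the PCNA clamp holds polymerase delta on DNA. Most of these genes are transcribed under E2F factors as cells enter S phase. In tumours, activated CD8+ T cells divide as they expand, and macrophages both arise from recruited monocytes and divide in the tissue.

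The values are numbers of distinct RNA molecules, counted by molecular barcodes attached during reverse transcription. TAM libraries held 206394 to 304100 molecules in WT, 100254 to 253608 in *muMt*-/- and 151856 to 262606 in GABA-treated mice, with group medians of 242756, 149960 and 192775. CD8+ T cell libraries held fewer, 22896 to 76898 in WT, 51064 to 77839 in *muMt*-/- and 65356 to 98015 in GABA-treated mice. Depth therefore differed between groups of a cell type, lowest in *muMt*-/- for TAMs and lowest in WT for CD8+ T cells. The 43 genes together gave 434 to 662 molecules in a WT TAM library and 29 to 229 in a WT CD8+ T cell library. Levels below are normalized numbers of molecules, scaled within each cell type. In pooled libraries, fewer dividing cells and less of an RNA in each cell cannot be told apart.

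By group medians, the sorted populations carried the markers of their labels. A list of 16 macrophage genes, with *Ctss* the most abundant, summed to 3195 to 4255 (median 3712) in WT, 2798 to 3580.2 (median 3155) in *muMt*-/- and 1945 to 3705 (median 3408) in GABA-treated libraries of TAMs. All 16 of these genes were detected in each TAM group. In the CD8+ T cell libraries the same list summed to 10.3 to 139 (median 27.6) in WT, 65.4 to 443 (median 96.1) in *muMt*-/- and 20.3 to 236 (median 143) in GABA-treated libraries. The low sums in WT CD8+ T cells came from 13 of the 16 genes, with *Adgre1*, *Mertk* and *Mrc1* at 0. A list of 11 T cell genes, with *Gzmb* the most abundant, summed to 356 to 534 (median 381) in WT, 187 to 510.4 (median 377) in *muMt*-/- and 245 to 592 (median 395) in GABA-treated libraries of CD8+ T cells, with all 11 genes detected. In TAMs the medians of that list were 5.37, 2.16 and 3.68. The macrophage sum of 443 and the T cell sum of 187 both belonged to *muMt*-/- CD8+ T cell replicate 1. In that library the macrophage genes thus outweighed the T cell genes. Of 7 B cell genes, *Cd79b* was detected in all 3 TAM groups and in GABA-treated CD8+ T cells, and *Ms4a1* in GABA-treated TAMs. The highest sum of that list, 3.77, was that of a *muMt*-/- TAM library. In TAMs its mean was 0.769 in WT, 0.991 in *muMt*-/- and 1.46 in GABA-treated libraries, with 4 GABA-treated libraries above all WT libraries. All of these are values near 0. The genotype was not checked on the mutated heavy chain gene itself, which was not analysed here.

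Within TAMs, all 43 genes passed the filter of a mean normalized number above 1 and were tested among 9469 genes. Summed over the 43 genes, the level ran from 345 to 509 (median 421) in WT, 213 to 379 (median 308) in *muMt*-/- and 293 to 465 (median 351) in GABA-treated libraries. The *muMt*-/- libraries were the lowest as a group, 4 of the 6 lay below the lowest WT library, and the ranges overlapped. The mean sums were 425 ± 63.7 in WT, 306 ± 59.97 in *muMt*-/- and 374 ± 73.7 in GABA-treated TAMs (SD, n = 6), so the mean of the *muMt*-/- group was 0.721 of the WT mean. *Pcna* was the gene with the most molecules in each group. The lowest sum of the *muMt*-/- group, 213, was that of replicate 4.

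**Figure D1:**
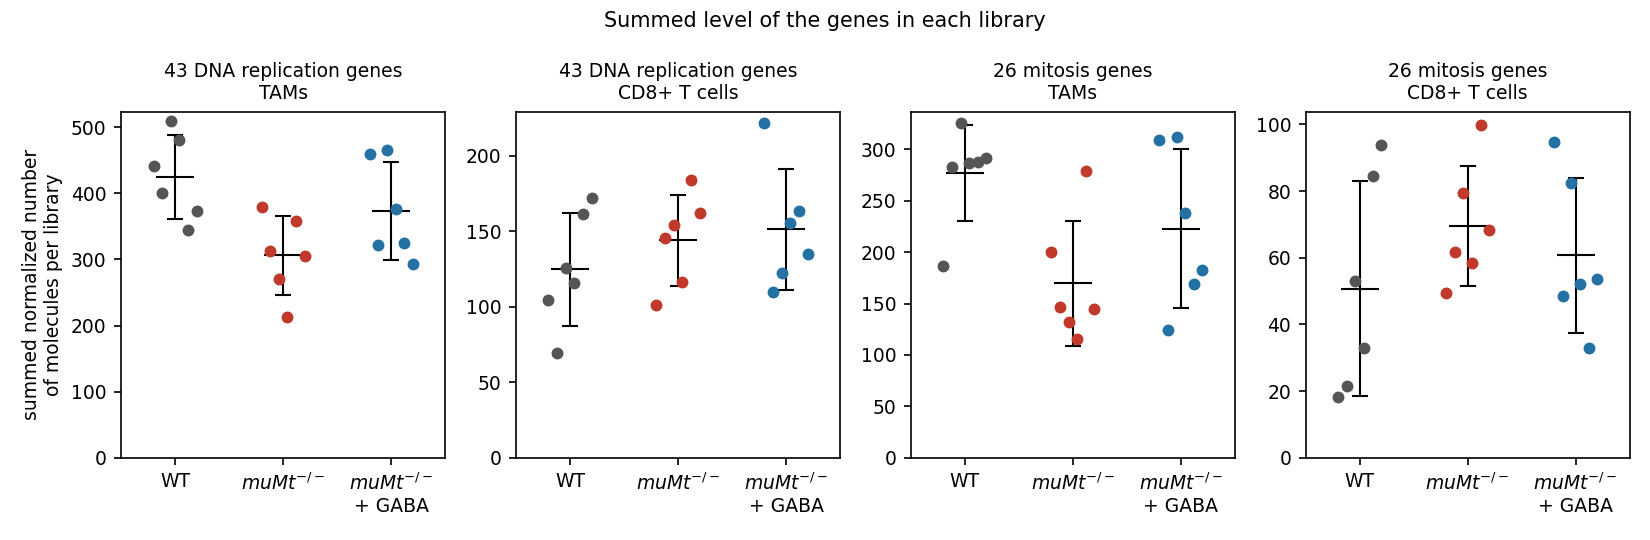
Summed normalized number of molecules per library (vertical axis) for the 43 replication genes and for 26 mitosis genes in TAMs and CD8+ T cells, by group (horizontal axis). Points are libraries, and the line and bar are the mean and SD of 6; in TAMs the replication sums of *muMt*-/- libraries reach from 213 to 379, against 345 to 509 in WT.

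The comparison of *muMt*-/- with WT TAMs asks what the absence of B cells does. By the edgeR quasi-likelihood F-test, 3 of the 43 genes had an adjusted p under 0.05 (called), all lower in *muMt*-/-, where 1.02% of all genes tested were called lower. At an unadjusted p under 0.05, 9 were lower (*Mcm7*, *Gins1*, *Pcna*, *Pole2*, *Fen1*, *Rpa1*, *Rrm2*, *Tk1* and *Asf1b*) and 0 higher, against 8.15% of all genes lower. The log2 fold change was negative for 37 of the 43 genes (36 with the size factors of DESeq2), where 53.7% of all genes were lower. With any 1 library left out, 35 to 39 of the 43 were negative. The median log2 fold change was -0.49 over the 43 genes and -0.05 over all genes tested. The individual values ran from -2.08 for *Asf1b* to 1.11 for *Gins3*. In 3 genes, *Asf1b*, *Tk1* and *Gins1*, every *muMt*-/- library lay below every WT library, as it did in 1.33% of all genes.

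*Asf1b* encodes a chaperone that hands histones H3 and H4 to the chromatin assembly factor behind the fork. Its gene lies at chr8:83955694-83970195 in GRCm38.p6. Its level was 8.72 to 18.2 (median 10.2) in WT, 0.783 to 6.22 (median 2.48) in *muMt*-/- and 3.98 to 9.16 (median 5.93) in GABA-treated libraries of TAMs. The WT and *muMt*-/- ranges did not overlap, and the GABA-treated libraries lay between, overlapping both. The group means were 11.3 ± 3.57, 2.85 ± 1.98 and 6.53 ± 2.15 (SD, n = 6). *Asf1b* was lower in *muMt*-/- than in WT by edgeR, at -2.08 on the log2 scale (SE 0.378, adjusted p 0.00211), the lowest value among the 43 genes. It was called in all 19 alternatives tried, with log2 fold changes from -2.51 to -1.80 and adjusted p values up to 0.0104. The highest WT value, 18.2, belonged to replicate 3, and without that library the fold change was -1.90 (adjusted p 0.00936).

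*Tk1*, thymidine kinase of the salvage path to dTTP, lies at chr11:117815519-117826087. It was measured at 9.23 to 12.4 (median 10.6) in WT, 1.24 to 6.45 (median 4.68) in *muMt*-/- and 4.03 to 9.14 (median 4.91) in GABA-treated libraries of TAMs. Every *muMt*-/- library and every GABA-treated library was below the lowest WT library. The means were 10.7 ± 1.29, 4.02 ± 2.19 and 5.85 ± 2.19 (SD, n = 6). *Tk1* was lower in *muMt*-/- than in WT, at -1.36 on the log2 scale (SE 0.325, adjusted p 0.0182). The call was lost without *muMt*-/- replicate 2 (adjusted p 0.0526), without *muMt*-/- replicate 4 (0.0673) and with each library's log2 total as a covariate (0.166). The fold change was then -1.19, -1.21 and -1.41, and it lay between -1.61 and -1.19 in all 19 alternatives. The annotated gene overlaps *Afmid*, which is counted in the table but was too low to be tested in TAMs.

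*Rrm2* encodes the small subunit of ribonucleotide reductase, the enzyme that makes deoxynucleotides from ribonucleotides. Located at chr12:24708254-24714146, it gave 14.4 to 26.8 (median 18.7) in WT, 4.18 to 17.4 (median 9.37) in *muMt*-/- and 10.8 to 21.1 (median 16.2) in GABA-treated libraries of TAMs. In *muMt*-/-, 5 of 6 libraries lay below the lowest WT library, and the GABA-treated range overlapped both. The means were 19.8 ± 5.67, 10.02 ± 4.76 and 15.7 ± 3.84 (SD, n = 6). *Rrm2* was lower in *muMt*-/- than in WT at -0.95 on the log2 scale (SE 0.266, adjusted p 0.0483), close to the threshold. The adjusted p rose past it in 10 of the 19 alternatives, and 7 of those left out 1 library. Among WT libraries, it was 0.0864 without replicate 1, 0.105 without replicate 2 and 0.118 without replicate 3. Among *muMt*-/- libraries, it was 0.0831 without replicate 1, 0.123 without replicate 3, 0.153 without replicate 4 and 0.0770 without replicate 6. The other alternatives that lost the call were the size factors of DESeq2, the replicate block and each library's log2 total as a covariate. Among those the adjusted p reached 0.232. The fold change itself stayed between -1.15 and -0.80 in all 19.

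**Figure D2:**
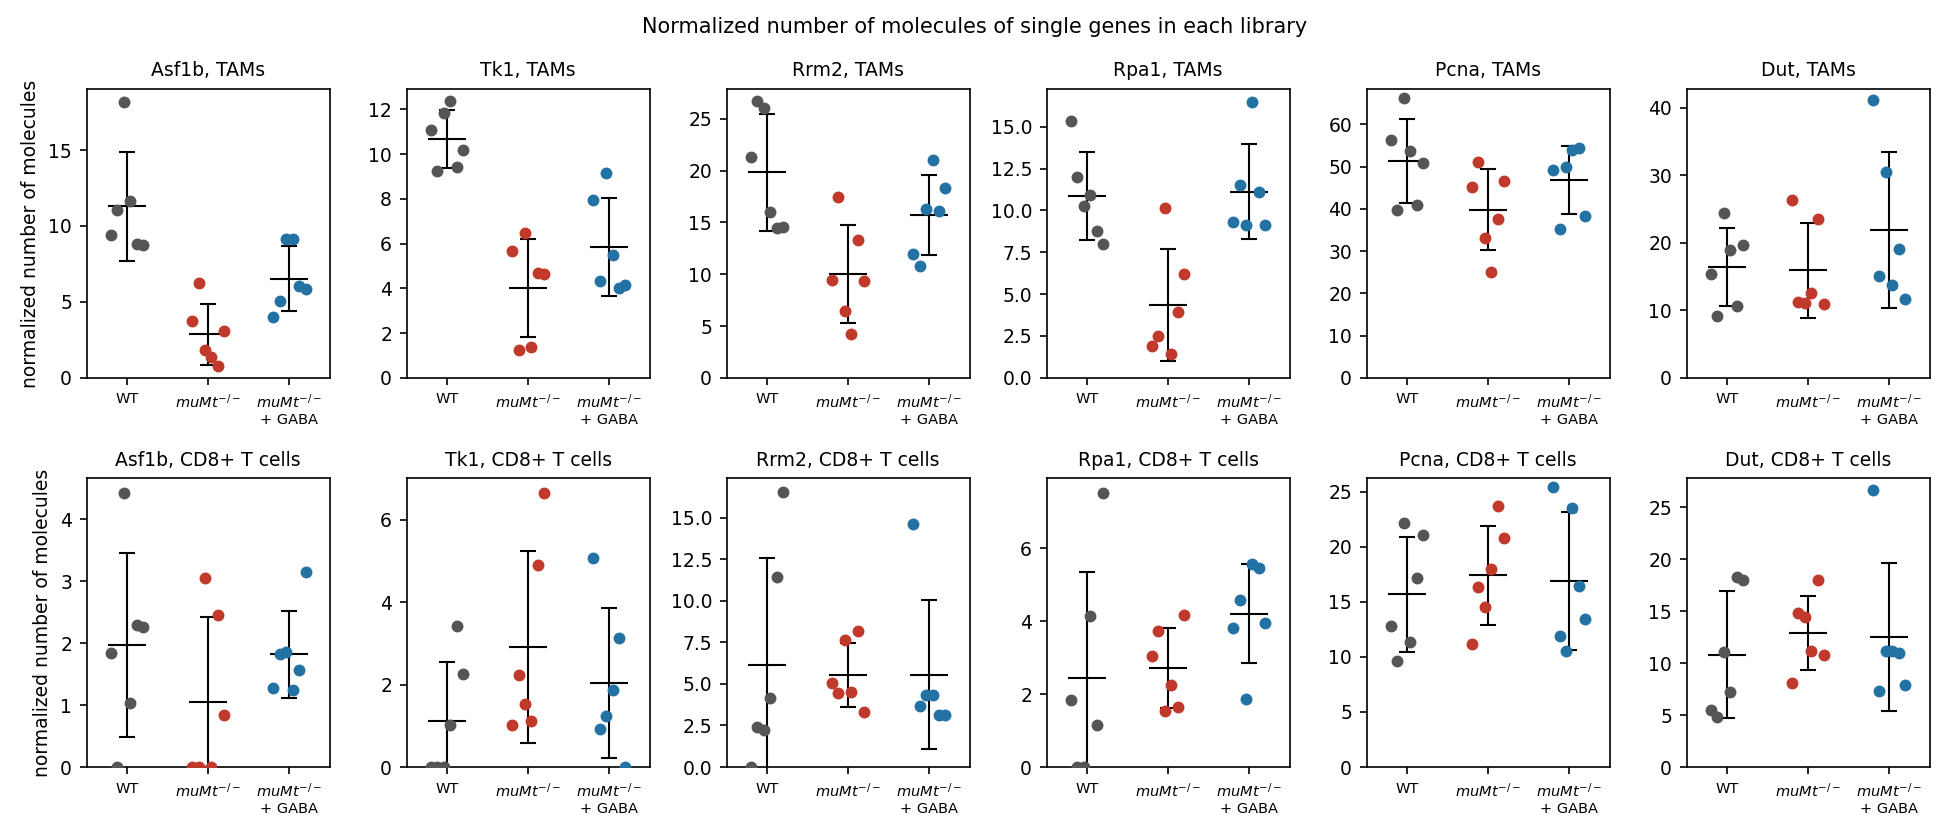
Normalized number of molecules per library (vertical axis) of *Asf1b*, *Tk1*, *Rrm2*, *Rpa1*, *Pcna* and *Dut* in TAMs (top) and CD8+ T cells (bottom), by group (horizontal axis). Points are libraries, lines and bars are the mean and SD of 6 with bars cut at 0, and in TAMs every *muMt*-/- value of *Asf1b* and *Tk1* lies below every WT value.

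Among the factors that license origins, *Cdt1*, *Cdc6* and geminin (*Gmnn*, the inhibitor that binds CDT1) all had negative fold changes between *muMt*-/- and WT TAMs, with a median of -0.44. *Cdt1* was at 7.89 to 11.9 (median 10.2) in WT, 3.11 to 11.98 (median 5.97) in *muMt*-/- and 2.75 to 15.9 (median 4.04) in GABA-treated libraries. It was below the lowest WT library in 5 of 6 *muMt*-/- libraries and above the highest in the other, and the fold change of -0.52 did not pass the test (adjusted p 0.4998). *Gmnn* stood at 6.46 to 13.4 (median 9.81) in WT, 3.73 to 10.9 (median 7.53) in *muMt*-/- and 3.02 to 11.2 (median 6.94) in GABA-treated libraries, with a fold change of -0.43 (adjusted p 0.555) and overlapping groups. Of the 11 genes of the MCM helicase and its activators, 9 had negative values in *muMt*-/- against WT, with a median of -0.44, and 0 were called by edgeR or by DESeq2, with 2 at an unadjusted p under 0.05. Beside these role counts, 53.7% of all genes tested were negative and 8.15% were lower at an unadjusted p under 0.05. *Mcm3*, a subunit of the helicase ring, ranged from 8.79 to 29.2 (median 22.1) in WT, 14.7 to 20.7 (median 16.7) in *muMt*-/- and 11.9 to 39.6 (median 20.1) in GABA-treated libraries. Its WT and *muMt*-/- ranges overlapped (log2 fold change -0.25, adjusted p 0.741). *Mcm4*, another subunit of the ring, had a positive value of 0.24 (adjusted p 0.762), with 2 *muMt*-/- libraries above the highest WT library and 1 below the lowest. That value ran from 0.10 to 0.41 with 1 library left out and was 0.03 with each library's log2 total as a covariate. *Gins1*, a subunit of the GINS complex chosen after its values were seen, was at 3.41 to 7.10 (median 5.09) in WT, 0 to 3.11 (median 2.12) in *muMt*-/- and 0.831 to 10.6 (median 4.05) in GABA-treated libraries. Its *muMt*-/- libraries were all below the WT libraries, at a fold change of -1.36 (adjusted p 0.142).

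The clamp and its loader gave negative values for 5 of 6 genes in *muMt*-/- against WT TAMs (median -0.46, 0 called by edgeR or DESeq2, 1 at an unadjusted p under 0.05). *Pcna*, the sliding clamp that holds polymerases on DNA, was at 39.7 to 66.3 (median 52.3) in WT, 25.1 to 51.01 (median 41.4) in *muMt*-/- and 35.3 to 54.4 (median 49.5) in GABA-treated libraries. In *muMt*-/-, 3 of 6 libraries were below the lowest WT library, and the fold change of -0.40 had an adjusted p of 0.282. *Rfc1*, the large subunit of the clamp loader, was the exception, at 3.69 to 15.3 (median 10.5) in WT and 9.22 to 20.7 (median 13.9) in *muMt*-/- TAMs. That gave a positive fold change of 0.40 (adjusted p 0.506). Polymerases and primase had negative values for 7 of 8 genes (median -0.57, 0 called by edgeR or DESeq2, 1 at an unadjusted p under 0.05). Of all genes tested, 53.7% were negative and 8.15% were lower at an unadjusted p under 0.05. *Pola2*, the accessory subunit of polymerase alpha, was at 4.26 to 7.26 (median 4.91) in WT, 2.79 to 13.2 (median 4.68) in *muMt*-/- and 5.82 to 19.3 (median 7.63) in GABA-treated libraries, and its fold change between *muMt*-/- and WT was -0.01. *Pola2* in *muMt*-/- replicate 1 reached 13.2, where the other libraries of the group lay between 2.79 and 6.22. Beside an SE of 0.360, the sign of that fold change carries no information.

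For single-strand binding and lagging-strand processing, 4 of 4 genes were negative in *muMt*-/- against WT TAMs (median -0.67), where 53.7% of all genes were. *Rpa1*, the large subunit of the protein that coats single-stranded DNA, lies at chr11:75300259-75348454 and was at 7.99 to 15.3 (median 10.6) in WT, 1.39 to 10.1 (median 3.20) in *muMt*-/- and 9.14 to 16.5 (median 10.2) in GABA-treated libraries. Of the *muMt*-/- libraries, 5 of 6 lay below the lowest WT library, and 3 of 6 GABA-treated libraries lay above the highest *muMt*-/- library. The fold change of *Rpa1* between *muMt*-/- and WT was -1.19 on the log2 scale (SE 0.336, adjusted p 0.0507), so it was not called by edgeR, while it was called by the Wald test of DESeq2. It was also called by edgeR with filterByExpr, without a filter, with the 12 libraries of the comparison alone, and without *muMt*-/- replicate 3. *Lig1*, the ligase that joins Okazaki fragments, was at 10.2 to 23.99 (median 16.8) in WT, 6.97 to 17.2 (median 11.2) in *muMt*-/- and 9.06 to 17.3 (median 13.8) in GABA-treated libraries, with overlapping groups and a fold change of -0.46 (adjusted p 0.386). In deoxynucleotide supply, which includes *Tk1* and *Rrm2*, 5 of 5 genes were negative (median -0.81), though *Dut*, the enzyme that destroys dUTP, was near 0 at -0.07. *Dut* was at 9.23 to 24.5 (median 17.1) in WT, 10.9 to 26.4 (median 11.9) in *muMt*-/- and 11.6 to 41.2 (median 17.1) in GABA-treated libraries. In replication-coupled chromatin, which includes *Asf1b*, 4 of 4 were negative (median -0.73). *Uhrf1*, which brings the maintenance methyltransferase to newly copied DNA, was at 5.08 to 13.8 (median 10.6) in WT, 0 to 11.3 (median 8.89) in *muMt*-/- and 7.05 to 15.2 (median 11.3) in GABA-treated libraries. The value of 0 belonged to *muMt*-/- replicate 4, and the fold change of *Uhrf1* was -0.43 (adjusted p 0.599). The E cyclins, which drive entry into S phase, were at 0.01 for *Ccne2* and 0.02 for *Ccne1*, values whose sign carries no information beside SEs of 0.4003 and 0.488.

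**Figure D3:**
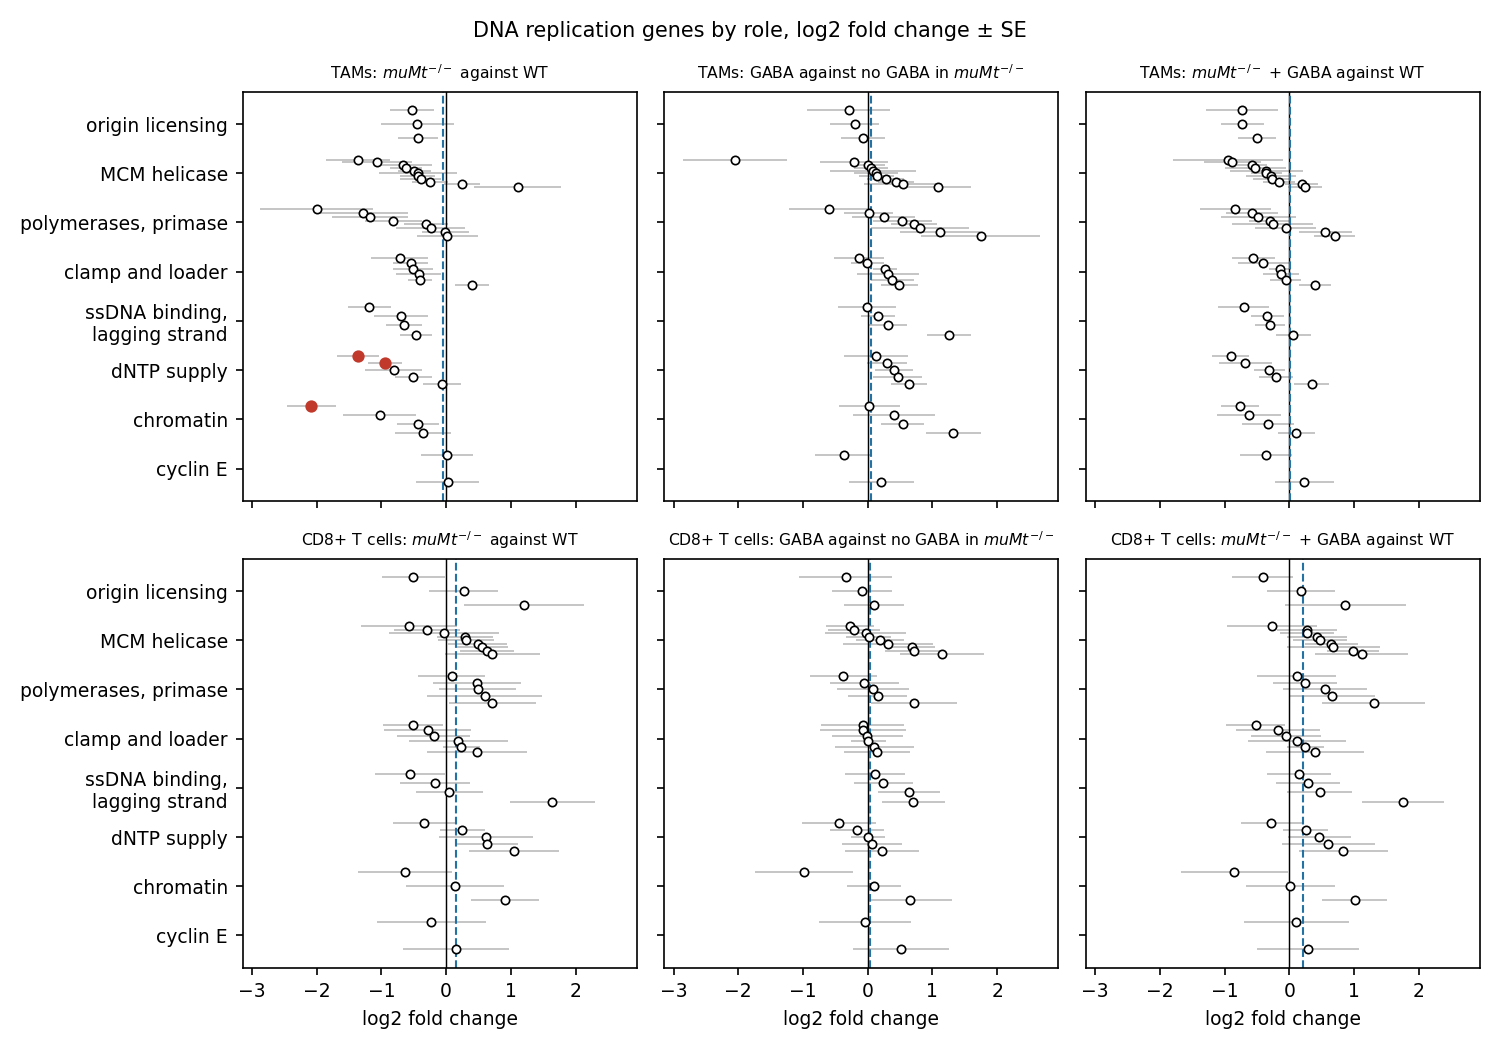
Log2 fold change (horizontal axis) of each replication gene tested, by role (vertical axis), in the 6 comparisons within a cell type. Points are genes with their SE, filled points have an adjusted p under 0.05, the dashed line is the median of all genes tested, and in *muMt*-/- against WT TAMs 37 of 43 points lie below 0 (36 with the size factors of DESeq2).

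Other genes of the cell cycle were examined in the same TAM groups. Of 79 further genes of replication and S phase control, 72 were tested and 2 were called lower in *muMt*-/- than in WT, with 0 higher, beside the 1.02% of all genes called lower. Among the 72, 53 values were negative and 19 positive, with a median of -0.27. The mean summed level of the 79 genes in *muMt*-/- was 0.891 of the WT mean, beside 0.721 for the 43 replication genes. *Pclaf*, which encodes a factor that binds PCNA, was at 37.8 to 59.2 (median 46.2) in WT, 19.5 to 32.1 (median 24.3) in *muMt*-/- and 18.1 to 39.6 (median 31.3) in GABA-treated libraries, and its WT and *muMt*-/- ranges did not overlap. It fell between WT and *muMt*-/-, at -0.89 on the log2 scale (SE 0.189, adjusted p 0.00666). *Ccna2*, the S phase cyclin A2, was at 10.2 to 26.04 (median 18.5) in WT, 2.79 to 11.3 (median 6.24) in *muMt*-/- and 4.58 to 15.8 (median 7.96) in GABA-treated libraries. It was lower in *muMt*-/- at -1.46 on the log2 scale (SE 0.307, adjusted p 0.00632), with a small overlap of the ranges. By parts, the calls were 0 of 13 tested for origin recognition and firing, 1 of 21 for the fork and lagging strand, 0 of 14 for nucleotides and chromatin and 1 of 24 for S phase control. Of 26 mitosis genes, all 26 were tested and had negative values, with a median of -0.69. The 3 called, again beside 1.02% of all genes, were *Kif20a*, a kinesin of cytokinesis (-1.59, adjusted p 0.0127), *Mad2l1* of the spindle checkpoint (-1.89, 0.00828) and *Cdca8* of the chromosomal passenger complex (-1.37, 0.00828). The mitosis genes summed to 187 to 326 (median 287) in WT, 116 to 279 (median 146) in *muMt*-/- and 124 to 312 (median 210.4) in GABA-treated libraries, and the lowest value was again that of *muMt*-/- replicate 4. Without that library, 1 of the 43 replication genes (*Asf1b*) was called and 69 of all genes tested in place of 194, and *Kif20a* was not called (-1.46, adjusted p 0.0536). With each library's log2 total as a covariate, *Pclaf*, *Ccna2*, *Kif20a*, *Mad2l1* and *Cdca8* were not called, at adjusted p values from 0.0823 to 0.292. Their fold changes were then -0.83, -1.62, -1.31, -1.84 and -1.49.

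Markers of other cells and nuclear RNAs were summed in the same TAM libraries. The 3 nuclear RNAs listed were all detected, with *Malat1* the most abundant, and summed to 594 to 719 (median 696) in WT, 886 to 2127 (median 1114) in *muMt*-/- and 650.4 to 1074 (median 720.1) in GABA-treated libraries. All 6 *muMt*-/- libraries were above all WT libraries, the highest value was that of *muMt*-/- replicate 4, and *Malat1* was higher at 0.82 on the log2 scale (SE 0.164, adjusted p 0.00385). The 5 monocyte genes, all detected and led by *Ccr2*, summed to 278 to 375 (median 309) in WT, 291 to 689 (median 617) in *muMt*-/- and 337 to 469 (median 432) in GABA-treated libraries. There, 5 of 6 *muMt*-/- libraries were above all WT libraries, and *Ccr2* was higher at 0.84 on the log2 scale (SE 0.188, adjusted p 0.0106). Of 9 epithelial genes, 2 were detected in each TAM group, with sums of 6.54 to 9.47 (median 8.62) in WT, 12.4 to 33.5 (median 15.7) in *muMt*-/- and 5.31 to 20.9 (median 10.7) in GABA-treated libraries. The list was led by *Cdh1*, which was higher in *muMt*-/- than in WT TAMs at 1.11 on the log2 scale (SE 0.284, adjusted p 0.0287), with *Epcam*, *Krt18*, *Krt19*, *Cldn3*, *Cldn4* and *Cldn7* at 0 in all 3 groups. Of 6 neutrophil genes, led by *Csf3r*, 5 were detected in WT and *muMt*-/- and 4 in GABA-treated TAMs, with *Retnlg* at 0, and they summed to 3.16 to 35.8 (median 6.60) in WT, 6.27 to 24.9 (median 21.8) in *muMt*-/- and 3.98 to 19.1 (median 13.9) in GABA-treated libraries. The 8 stromal genes, led by *Col3a1*, were all detected but for *Cdh5* in GABA-treated TAMs, and summed to 20.1 to 982 (median 77.9) in WT, 13.99 to 391 (median 94.3) in *muMt*-/- and 106 to 499.7 (median 118) in GABA-treated libraries, with overlapping ranges. Without *muMt*-/- replicate 4, *Ccr2* (0.64, adjusted p 0.0674) and *Cdh1* (0.89, 0.143) were not called, and *Malat1* was at 0.61. *Cdh1* was also not called without *muMt*-/- replicate 1 (0.0677) or without WT replicates 1 (0.0594), 4 (0.0507) or 6 (0.0642), with fold changes from 1.04 to 1.10. With the covariate the fold change was 0.82 for *Malat1* (adjusted p 0.0988), 0.41 for *Ccr2* (0.579) and 1.23 for *Cdh1* (0.158). With each library's log2 total as a covariate, 37 of the 43 replication genes were negative, with a median of -0.56 in place of -0.49, and *Asf1b* was the 1 called, while the calls over all genes fell from 194 to 11. The part of these markers in the replication result was not tested.

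Giving GABA to *muMt*-/- mice asks whether the metabolite restores what B cells provide. This comparison shares its *muMt*-/- libraries with the one against WT, so the values are given side by side only. Of the 43 genes, 0 were called by edgeR, where 0.0211% of all genes were called, and 0 by DESeq2. At an unadjusted p under 0.05 there were 6, against 8.46% of all genes. The values were positive for 33 genes and negative for 10, where 55.8% of all genes were higher, with a median of 0.26 against 0.06 over all genes. Of the other replication and S phase genes, 44 of 72 were positive and 28 negative, with a median of 0.15. The GABA-treated mean sum was 1.22 of the *muMt*-/- mean for the 43 genes. It was 0.989 for the 79 other replication and S phase genes and 1.31 for the mitosis genes. When 1 library was left out, the number positive ran from 28 without GABA-treated replicate 3 to 38 without *muMt*-/- replicate 5. The 6 with an unadjusted p under 0.05 were *Rpa1*, *Asf1b*, *Gins1*, *Pola2* and *Rrm2*, higher with GABA, and *Gins3*, lower. *Rpa1* had the smallest adjusted p, 0.195, at a fold change of 1.25 (SE 0.342). *Asf1b* was at 1.32 (SE 0.426, adjusted p 0.288), with 2 of 6 GABA-treated libraries above the highest *muMt*-/- library. *Rrm2* was at 0.64 (adjusted p 0.519) and *Tk1* at 0.46 (adjusted p 0.793). The role medians were 0.41 for deoxynucleotide supply, 0.47 for chromatin, 0.62 for polymerases, 0.13 for the helicase and -0.20 for origin licensing. They were 0.29 for the clamp and its loader, 0.24 for single-strand binding and lagging-strand processing and -0.08 for the E cyclins. The summed nuclear RNAs given above had a GABA-treated mean of 0.627 of the *muMt*-/- mean, and 5 of 6 GABA-treated libraries lay below all *muMt*-/- libraries. *Malat1* was at -0.66 (adjusted p 0.139) and *Ccr2* at -0.63 (0.259) in this comparison. The monocyte sum was 0.774 and the epithelial sum 0.601 of the *muMt*-/- mean, and the part of these RNAs in the replication values was not tested.

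*Cdt1* was an exception to the positive values, at -0.20 in GABA-treated against *muMt*-/- TAMs, and its sign turned to 0.10 without *muMt*-/- replicate 3. *Ccne2* was at -0.37 (SE 0.439, adjusted p 0.868), with -0.59 to -0.15 when 1 library was left out and -0.03 with each library's log2 total as a covariate. *Rfc1*, which was not lower in *muMt*-/- than in WT, was at -0.0048 (SE 0.254).

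The comparison of GABA-treated *muMt*-/- with WT TAMs asks how far the treated mice still differ, and it shares libraries with both comparisons above. It had 0 of 43 genes called by edgeR (0.0739% of all genes) and 0 by DESeq2, with 5 at an unadjusted p under 0.05 (7.02% of all genes). Values were negative for 34 genes and positive for 9, where 48.0% of all genes were lower, with a median of -0.33 against 0.02 over all genes. The 5 were *Tk1* (-0.90, adjusted p 0.391), *Asf1b* (-0.76, 0.540), *Mcm7* (-0.57, 0.579), *Cdt1* (-0.72, 0.684) and *Pola2*, the 1 with a positive value (0.70, 0.676). Without GABA-treated replicate 3, *Pola2* was at 0.34. *Mcm7*, a helicase subunit, was chosen after its values were seen. *Tk1* was the 1 gene whose groups did not overlap, lower in every GABA-treated library, as 0.359% of all genes were, and the mean summed level of the 43 genes was 0.880 of the WT mean. The monocyte sum was 1.35 of the WT mean, with 5 GABA-treated libraries above all WT libraries. For nuclear RNAs it was 1.15, with 4 above, and for macrophage genes 0.837. The part of these RNAs in the replication values was not tested.

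In CD8+ T cells, 37 of the 43 genes passed the filter among 6663 genes tested, and *Mcm10*, *Prim2*, *Pole*, *Pole2*, *Gins3* and *Chaf1b* were too low. Summed over all 43 genes, the level ran from 69.7 to 172 (median 121) in WT, 101 to 184 (median 149.8) in *muMt*-/- and 109.7 to 222 (median 145) in GABA-treated libraries. The ranges of the 3 groups overlapped, and the lowest library was WT replicate 2. Between *muMt*-/- and WT, 0 of the 37 were called by edgeR (0% of all genes) and 0 by DESeq2, with 1 at an unadjusted p under 0.05 (6.17% of all genes). Of the 37, 25 were positive and 12 negative, where 62.3% of all genes were higher. With the size factors of DESeq2, 23 were positive, where 54.6% of all genes were higher. The median was 0.25 against 0.15 over all genes, or 0.15 against 0.06 with those size factors. It was 0.09 without WT replicate 2, and 0.01 with each library's log2 total as a covariate, where 19 were positive and 18 negative. The 1 gene was *Rpa2*, the middle subunit of the single-strand binding protein, chosen after its values were seen. *Rpa2* was at 0 to 2.40 (median 1.09) in WT, 1.01 to 6.66 (median 3.54) in *muMt*-/- and 1.83 to 7.81 (median 2.51) in GABA-treated libraries, at a fold change of 1.64 (SE 0.656, adjusted p 0.679) and with overlapping ranges. Between GABA-treated and *muMt*-/- CD8+ T cells, 0 of the 37 were called by edgeR (0% of all genes) or by DESeq2, and 0 had an unadjusted p under 0.05 (3.71% of all genes). Values were positive for 23 and negative for 14, where 53.5% of all genes were higher, with a median of 0.08 against 0.03. By the size factors of DESeq2, 20 were positive, where 48.5% of all genes were higher, with a median of 0.04 against -0.02. That direction was not stable. Without GABA-treated replicate 1 or without *muMt*-/- replicate 1, 15 were positive and 22 negative, with medians of -0.11 and -0.07, and with the covariate the same counts had a median of -0.08. Of these libraries, *muMt*-/- replicate 1 had the highest macrophage sum and the lowest T cell sum of its group, as given above. GABA-treated replicate 1 had the lowest *Cd8a* (14.6) and the highest *Itgam* (26.7) of its group. Both genes were picked from longer lists, and other macrophage genes, such as *Csf1r*, *Lyz2* and *Apoe*, were highest in GABA-treated replicate 3. The part of these markers in the direction was not tested.

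Between GABA-treated and WT CD8+ T cells, 0 of the 37 were called by edgeR (0% of all genes) or by DESeq2, with 2 at an unadjusted p under 0.05 (6.89% of all genes). They were *Rpa2* (1.76, adjusted p 0.511) and *Mcm6*, a helicase subunit (0.99, adjusted p 0.610). *Mcm6* was at 0 to 8.84 (median 7.79) in WT, 3.36 to 9.16 (median 6.99) in *muMt*-/- and 6.40 to 14.1 (median 10.4) in GABA-treated libraries. Values were positive for 30 of the 37, where 65.5% of all genes were higher, or for 26 with the size factors of DESeq2, where 54.5% were, and the median was 0.29 against 0.21 over all genes. Those size factors moved the median of all genes from 0.21 to 0.06, and the median of the 37 less that of all genes was 0.08 with edgeR's scaling and 0.09 with DESeq2's. With each library's log2 total as a covariate, 12 were positive and 25 negative, with a median of -0.12. The 3 comparisons of CD8+ T cells share libraries pairwise, and the WT group was the shallowest. *Pcna*, the most abundant of the genes here as in TAMs, was at 9.62 to 22.1 (median 14.99) in WT, 11.1 to 23.7 (median 17.1) in *muMt*-/- and 10.5 to 25.4 (median 14.9) in GABA-treated libraries. *Dut* was at 4.81 to 18.3 (median 9.14) in WT, 8.09 to 17.99 (median 12.8) in *muMt*-/- and 7.32 to 26.7 (median 11.04) in GABA-treated libraries. In both, all 3 groups overlapped. The macrophage genes given above had a higher median in the *muMt*-/- and GABA-treated CD8+ T cell libraries than in WT, and their part in these values was not tested.

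By role in CD8+ T cells and with edgeR's scaling, the helicase genes were positive for 6 of 9 tested in *muMt*-/- against WT, 6 of 9 in GABA-treated against *muMt*-/- and 8 of 9 in GABA-treated against WT. The 5 polymerase and primase genes tested were positive for 5, 3 and 5, and the 4 genes of single-strand binding and lagging-strand processing for 2, 4 and 4. In the clamp and its loader, 3 of 6 were positive in each. In the same order, 2, 1 and 2 of 3 licensing genes, 4, 3 and 4 of 5 deoxynucleotide supply genes, 2, 2 and 2 of 3 chromatin genes and 1, 1 and 2 of 2 E cyclins were positive. None of these role groups had a gene called by edgeR or by DESeq2, and those at an unadjusted p under 0.05 were *Rpa2* and *Mcm6*. Among helicase subunits, *Mcm7* was at 1.83 to 7.51 (median 4.79) in WT, 2.24 to 10.4 (median 7.63) in *muMt*-/- and 1.91 to 7.88 (median 6.71) in GABA-treated libraries. *Mcm5* was at 0 to 8.26 (median 7.28) in WT, 0 to 10.6 (median 3.59) in *muMt*-/- and 3.66 to 14.8 (median 6.34) in GABA-treated libraries. *Mcm3* was at 0 to 9.17 (median 6.41) in WT, 3.71 to 10.7 (median 6.40) in *muMt*-/- and 3.15 to 16.5 (median 5.89) in GABA-treated libraries, and its fold change between GABA-treated and WT CD8+ T cells, 0.48, turned to -0.00090 without GABA-treated replicate 1. All groups of these 3 genes overlapped.

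The genes called in TAMs were also examined in CD8+ T cells. *Asf1b* was at 0 to 4.42 (median 2.04) in WT, 0 to 3.05 (median 0.416) in *muMt*-/- and 1.24 to 3.15 (median 1.70) in GABA-treated libraries, and *Tk1* at 0 to 3.43 (median 0.516) in WT, 1.01 to 6.66 (median 1.88) in *muMt*-/- and 0 to 5.08 (median 1.55) in GABA-treated libraries. *Rrm2* was at 0 to 16.5 (median 3.27) in WT, 3.33 to 8.18 (median 4.77) in *muMt*-/- and 3.12 to 14.6 (median 3.997) in GABA-treated libraries, with fold changes of -0.35 in *muMt*-/- against WT and -0.28 in GABA-treated against WT. Both values rested on WT replicate 6, and without it they were 0.37 and 0.44, while with the covariate they were -1.16 and -1.75. Of the other roles, *Cdt1* was at 2.21 to 6.86 (median 4.47) in WT, 1.01 to 5.20 (median 2.37) in *muMt*-/- and 0.620 to 4.96 (median 3.09) in GABA-treated libraries, and *Pold2*, the small subunit of polymerase delta, at 1.83 to 6.63 (median 2.35) in WT, 0 to 5.20 (median 2.77) in *muMt*-/- and 2.34 to 4.96 (median 2.64) in GABA-treated libraries. *Uhrf1* was at 0 to 4.57 (median 2.31) in WT, 2.23 to 6.54 (median 4.91) in *muMt*-/- and 3.10 to 8.59 (median 4.20) in GABA-treated libraries, the fold change between *muMt*-/- and WT being 0.91 (adjusted p 0.850). *Lig1* was at 0 to 8.26 (median 4.87) in WT, 2.24 to 8.18 (median 3.57) in *muMt*-/- and 3.10 to 8.67 (median 4.56) in GABA-treated libraries, and *Ccne2* at 0 to 3.43 (median 0) in WT, 0 to 2.97 (median 0.416) in *muMt*-/- and 0.914 to 2.36 (median 1.26) in GABA-treated libraries. Each of these genes had overlapping groups, and values of 0 appeared in at least 1 library for *Asf1b*, *Tk1*, *Rrm2*, *Pold2*, *Uhrf1*, *Lig1* and *Ccne2*.

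A test over all 36 libraries compared the cell types, with 41 of the 43 genes among 8477 tested. In WT mice, 0 of the 41 differed between TAMs and CD8+ T cells by edgeR, where 22.7% of all genes did, with 4 at an unadjusted p under 0.05 (32.6% of all genes). The Wald test of DESeq2 called 1, *Dut*, beside 1666 of the 8477 genes. Values were higher in TAMs for 32 of 41, or 29 with the size factors of DESeq2, beside 66.3% and 58.9% of all genes. The median was 0.42 against 0.36 over all genes, or 0.27 against 0.20 with those size factors. It was below that of all genes with filterByExpr, at 0.02 against 0.09 over 11 of the genes. Without WT CD8+ T cell replicate 2 it was 0.29 against 0.32. Leaving out WT CD8+ T cell replicate 6 gave 2 calls by edgeR, *Rfc5* and *Tk1*, beside 1842 of the 8477 genes. Leaving out WT CD8+ T cell replicate 5 gave 1, *Tk1*, beside 1849 of all genes. Leaving out WT CD8+ T cell replicates 1, 2 or 4 or WT TAM replicates 3 or 6 gave 1, *Dut*, beside 1598 to 1880 of all genes. Scaled to a library total of 1000000 molecules, the 43 genes summed to 1805 to 2746 in WT TAMs (median 2229) and 1267 to 2978 in WT CD8+ T cells (median 2171). The WT ranges of the cell types overlapped. The 4 genes were *Tk1* (1.41, adjusted p 0.0539), *Asf1b* (1.12, 0.0867) and the loader subunit *Rfc5* (1.21, 0.132), higher in TAMs, and *Dut* (-0.91, 0.0545), lower. *Rfc5* was chosen after its values were seen.

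The difference between TAMs and CD8+ T cells in the response to *muMt*-/- was tested directly. By edgeR, 0 of 41 genes passed, where 0.0118% of all genes did, and 0 by DESeq2, with 6 at an unadjusted p under 0.05 (10.1% of all genes). Values were more negative in TAMs for 39 of 41, or 35 with the size factors of DESeq2, with a median of -0.82 against -0.30 over all genes. Of all genes, 34.0% were more positive in TAMs, or 44.1% with those size factors. Those size factors moved the median of all genes to -0.11, and the median of the 41 less that of all genes was -0.53 with edgeR's scaling and -0.52 with DESeq2's. With filterByExpr, which kept 11 of the genes, that difference was -0.25. *Tk1* had the smallest adjusted p, 0.217, at -2.44 (SE 0.739). For the response to GABA, 0 of 41 passed by edgeR (0% of all genes) and 0 by DESeq2, with 1 at an unadjusted p under 0.05 (4.53% of all genes), and 24 of 41 values were positive, beside 50.5% of all genes, with a median of 0.22 against 0.01. When 1 library was left out, the number positive ran from 21 without GABA-treated CD8+ T cell replicate 3 to 31 without GABA-treated CD8+ T cell replicate 1 or *muMt*-/- TAM replicate 5. The median then ran from 0.04 without *muMt*-/- CD8+ T cell replicate 3 to 0.32 without GABA-treated CD8+ T cell replicate 1. The calls in TAMs and their absence in CD8+ T cells are thus not shown to differ between the cell types. The CD8+ T cell libraries were the shallower, and a p that misses the threshold does not show that values did not differ.

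Promoter sequence was described from RefSeq GRCm38.p6, in windows of 250 bases before to 50 after each gene's start, for 35 of the 43 genes with 41 windows. An E2F motif (TTTCCCGC, TTTCGCGC, TTTGCCGC or TTTGGCGC on either strand) was in 13 of the 35 genes, or 37.1%, and in 2.60% of 27025 genes with windows. CCAAT was in 21 of 35, or 60%, against 41.1% of those genes. The cell cycle homology motif TTTGAA was in 6 of 35, or 17.1%, against 20.2%. Among the genes, 8 held both an E2F motif and CCAAT, and 8 held none of the 3. By role, E2F motifs were in 5 of 8 helicase genes, 3 of 6 polymerase and primase genes, 2 of 2 licensing genes, 1 of 5 clamp and loader genes, 1 of 4 genes of single-strand binding and lagging-strand processing, 1 of 4 chromatin genes, 0 of 5 deoxynucleotide supply genes and 0 of 1 E cyclin. Of the 3 genes called lower in *muMt*-/- TAMs, *Asf1b* and *Rrm2* held a motif within 100 bases before their start and the window of *Tk1* held none. The sequences are printed to show where the motifs lie, in capitals and 5′ to 3′ on the + strand, from chr8:83955594-83955693 and chr12:24708154-24708253 of GRCm38.p6. *Asf1b* shows CCAAT on the other strand (ATTGG) at 2 places and TTTGAA, and *Rrm2* shows CCAAT. A match describes letters and shows no binding.
Asf1b: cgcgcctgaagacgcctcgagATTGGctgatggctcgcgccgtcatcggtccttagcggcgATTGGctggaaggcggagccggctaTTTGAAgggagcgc
Rrm2: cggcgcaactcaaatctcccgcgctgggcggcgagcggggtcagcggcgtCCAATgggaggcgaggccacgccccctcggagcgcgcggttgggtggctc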

How the data were processed

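The authors deposited counts of distinct molecules per gene for 36 libraries, made by digital RNA sequencing with molecular barcodes and mapping with STAR to mm10. Genes with a mean normalized number of molecules above 1 (DESeq2 1.42.0 size factors) were tested by the edgeR 4.0.16 quasi-likelihood F-test in R 4.3.3, with TMM scaling, over the 18 libraries of a cell type or all 36, and adjusted by Benjamini-Hochberg over all genes tested (threshold 0.05). Changes are log2 fold changes. Alternatives were DESeq2 size factors, the DESeq2 Wald test, filterByExpr, no filter, a replicate block, log2 molecules as a covariate, the 12 libraries of a comparison, and each library left out. The pipeline was tested on simulated data. Tables and figures used Python 3.11.15, pandas 2.3.3, NumPy 2.4.6 and matplotlib 3.10.9. Named genes were those called, the largest changes among genes with a mean of at least 5, the most abundant of each role, and called pathway or mitosis genes. The members and lists were chosen with earlier results of these data known. Whether the counting was by strand is not stated in the sources used, and 13 of the 43 genes overlap another counted gene.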

Additional observations from a re-analysis of the deposited data

Results flagged for a closer look

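Some libraries stood far from the other 5 of their group, by a gap that was large for the range of the group (Dixon's ratio above 0.625), in normalized numbers of molecules. *Pold2* was 6.63 in WT CD8+ T cell replicate 3, where the others lay between 1.83 and 3.005. *Rrm2* was 14.6 in GABA-treated *muMt*-/- CD8+ T cell replicate 1, where the others lay between 3.12 and 4.34. *Dut* was 26.7 in GABA-treated *muMt*-/- CD8+ T cell replicate 1, where the others lay between 7.32 and 11.2. *Uhrf1* was 8.59 in GABA-treated *muMt*-/- CD8+ T cell replicate 5, where the others lay between 3.10 and 4.96. *Pold2* was 4.96 in GABA-treated *muMt*-/- CD8+ T cell replicate 3, where the others lay between 2.34 and 3.15. *Asf1b* was 18.2 in WT TAM replicate 3, where the others lay between 8.72 and 11.6. *Pola2* was 13.2 in *muMt*-/- TAM replicate 1, where the others lay between 2.79 and 6.22. *Uhrf1* was 0 in *muMt*-/- TAM replicate 4, where the others lay between 7.37 and 11.3. *Rpa1* was 16.5 in GABA-treated *muMt*-/- TAM replicate 4, where the others lay between 9.14 and 11.5. *Pola2* was 19.3 in GABA-treated *muMt*-/- TAM replicate 3, where the others lay between 5.82 and 8.24. These 10 came from 87 groups examined, and chance marks about 1 in 20 groups, or 4.4 here. No cause was tested.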

How the results depend on the processing

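Between *muMt*-/- and WT TAMs, 3 of the 43 genes were called, and 2 with DESeq2 size factors, 4 with the DESeq2 Wald test, 4 with filterByExpr (20 of the genes tested), 4 without a filter, 2 with the replicate block, 4 with the 12 libraries of the comparison and 1 with log2 molecules as a covariate. Leaving out 1 library gave 1 to 3, with 1 without *muMt*-/- replicate 4. The count over all genes was 194 of 9469 tested. It became 295 of 3853 with filterByExpr and 343 of 14986 without a filter. Among the 9469 it was 206 with DESeq2 size factors, 253 with the Wald test and 201 with the replicate block. It was 324 with 12 libraries, 11 with the covariate and 69 to 230 with 1 library left out. Between WT TAMs and CD8+ T cells, 0 of the replication genes were called, 1 with DESeq2 size factors, the Wald test, filterByExpr or the replicate block, and 0 to 2 with 1 library left out. Over all 8477 genes tested, 1928 were called, and 1598 to 1885 with 1 library left out. The calls over all genes were 1808 with DESeq2 size factors, 1666 with the Wald test, 1914 with the replicate block and 1166 of 2614 with filterByExpr. Medians of *muMt*-/- against WT CD8+ T cells, 0.25, ran from 0.09 to 0.42 with 1 library left out and were 0.01 with the covariate. For GABA-treated against *muMt*-/- CD8+ T cells, 0.08 became -0.11 to 0.16 and -0.08. For GABA-treated against WT CD8+ T cells, 0.29 became 0.13 to 0.50 and -0.12. In TAMs the 3 medians kept their sign in all alternatives. They ran, with 1 library left out, from -0.65 to -0.39 in *muMt*-/- against WT, 0.16 to 0.38 in GABA-treated against *muMt*-/- and -0.43 to -0.25 in GABA-treated against WT. The median difference between cell types in the response to GABA, 0.22, became 0.04 to 0.32. That of WT TAMs against WT CD8+ T cells, 0.42, became 0.29 to 0.66, or 0.02 with filterByExpr (11 genes). For the difference in the response to *muMt*-/-, -0.82 became -0.63 with DESeq2 size factors, -0.43 with filterByExpr and -0.98 to -0.68 with 1 library left out. Signs changed for *Cdt1* in GABA-treated against *muMt*-/- TAMs (0.10 without *muMt*-/- replicate 3; -0.57 to 0.10 with 1 library left out), for *Rrm2* in CD8+ T cells without WT replicate 6 (0.37 in *muMt*-/- and 0.44 in GABA-treated against WT; -0.55 to 0.37 and -0.92 to 0.44 with 1 library left out, -1.16 and -1.75 with the covariate), and for *Mcm3* in GABA-treated against WT CD8+ T cells (-0.12 with the covariate; -0.00090 to 0.61 with 1 library left out). Values of the same sign that moved by more than 1.5 times when 1 library was left out included *Mcm4* and *Rfc1* in *muMt*-/- against WT TAMs (0.10 to 0.41 and 0.25 to 0.51), *Ccne2* in GABA-treated against *muMt*-/- TAMs (-0.59 to -0.15) and *Pola2* in GABA-treated against WT TAMs (0.34 to 0.79). *Mcm6* in GABA-treated against WT CD8+ T cells was 0.56 with the covariate. In GABA-treated TAMs the 2 calls over all genes against *muMt*-/- became 60 with the Wald test and 51 without a filter, and the 7 against WT became 14 and 63. The 2 also became 35 without GABA-treated replicate 1 and 12 without *muMt*-/- replicate 5, and the 7 became 2 to 9 with 1 library left out. Without a filter, CD8+ T cell comparisons had 72, 11 and 64 calls over all genes where 0 were called. In *muMt*-/- against WT CD8+ T cells there were 13 calls without WT replicate 5, and in GABA-treated against *muMt*-/- 6 with the covariate and 2 with the replicate block. The cause of these changes was not tested. Within a cell type, libraries of the same replicate number had mean correlations from -0.0445 to 0.108, as deviations from their group means. Between TAMs and CD8+ T cells the mean correlation was 0.0112 in WT, 0.0227 in *muMt*-/- and 0.0516 in GABA-treated mice for the same number, and -0.00229, -0.00432 and -0.0101 for different numbers. A mouse shared by 2 libraries is not stated in the labels. Depth limits low genes most, and filterByExpr kept 20 of the 43 in TAMs and 3 in CD8+ T cells.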
